A study of Mus musculus with 4 samples.

Results

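The cells described here are bone marrow progenitors in which at least 2 of 6 early B-lineage genes were detected at homeostasis. A cell was a member when it held a unique molecular identifier (UMI, a tag that marks 1 captured RNA molecule) of 2 or more of Ebf1, Vpreb1, Vpreb3, Igll1, Cd79a and Cd79b. No cell was removed for expressing lineage genes. Of 16207 cells assigned to 1 genotype, 304 were members, which is 1.88% (95% exact binomial interval 1.67 to 2.10). The members were chosen by these 6 genes, so the levels of the 6 genes are given as a description only.

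The libraries came from LSK cells (negative for lineage markers, positive for Sca-1 and cKit), in which stem cells and multipotent progenitors of the marrow are found, of adult male C57BL/6 mice. Wild-type mice carried Sin3B F/F alleles without Cre. Knockout mice carried Sin3B F/F with Vav1-iCre, a Cre active across the hematopoietic system, so that the loss of Sin3B was not limited to B-lineage cells. Cells of 2 mice per genotype were pooled, marked with a hashtag antibody (B0096 for wild type and B0157 for knockout, per the study's methods) and run together as 1 untreated library. Each genotype was therefore 1 pool with no replicate: no p-value is given, every interval covers counting error only, and genotype cannot be told apart from pool, mouse or hashtag antibody. The antibodies used to remove mature lineages included B220, a CD45 isoform of B cells, and IL7Ra, the interleukin 7 receptor.

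B cells arise in the marrow from lymphoid-primed progenitors. The transcription factors E2A (encoded by Tcf3) and Ebf1 open the B-lineage program, and Pax5 commits cells to it. Pro-B and pre-B cells rearrange the immunoglobulin heavy chain with the Rag and Dntt enzymes. They then display it with the surrogate light chain, made of Vpreb1 or Vpreb2 with Igll1, on the signaling subunits Cd79a and Cd79b.

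Vpreb1, Igll1 and Cd79a share a sequence feature that the selection did not use, shown because E2A recognizes such E-box sequences. The letters CAGGTG, searched on both strands, occur in the 250 bases before the annotated start of each (RefSeq, GRCm38.p6, each read in the direction of its gene). The 30 bases around each match lie at chr16:16869326-16869355 (minus strand), chr16:16863986-16864015 (minus strand) and chr7:24897331-24897360 (plus strand), with the match in capitals.
Vpreb1: atgacgttccagCAGGTGcttcctcccaga
Igll1: ctggggtttggctacacagatcCACCTGca
Cd79a: ttgtggccagccCAGGTGcagggcagttcc
The first letter of the match stood 88 bases before the start in Vpreb1, 8 bases in Igll1 and 154 bases in Cd79a. The same letters were found in 5657 of 32851 promoters of this length (17.2%). They also occurred before the start of Blnk, and did not occur in these windows of Vpreb3, Ebf1 and Pax5. A match is a description of these letters and not a measured binding site.

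The homeostasis matrix held 23931 barcodes at or above the minimum depth, set from the 10000 deepest barcodes as 10% of their 99th percentile. Of these, 11579 were wild-type singlets, 4628 were knockout singlets, 1441 carried both tags and 6283 carried neither. The median depth was 10748 UMIs in members and 6855 UMIs in the other singlets, and a deeper cell is more likely to show a UMI of any gene. Sin3b, the deleted gene, was measured at 80.6 CPM (UMIs of a gene per 1000000 UMIs of the pool, with a 95% exact Poisson interval 78.8 to 82.5) in wild-type and 23.2 CPM (21.6 to 24.8) in knockout non-members. In members the log2 ratio of Sin3b, knockout to wild type, was -1.65 (-2.60 to -0.92), so the hashtag assignment and the Sin3b level pointed the same way in these cells.

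Members were unevenly spread over the number of rule genes held. Exactly 2 genes were held by 216 cells, 3 by 20, 4 by 14, 5 by 12 and all 6 by 42, so that cells with 4 or 5 genes were fewer than cells with 6. The division into cells with 2 to 4 genes (250 cells) and with 5 or more (54 cells) used below was chosen after these counts were seen. Just outside the rule, 3127 singlets held 1 of the genes, and just inside it 158 of the 216 cells with 2 genes held only 1 UMI of each.

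**Figure D1:**
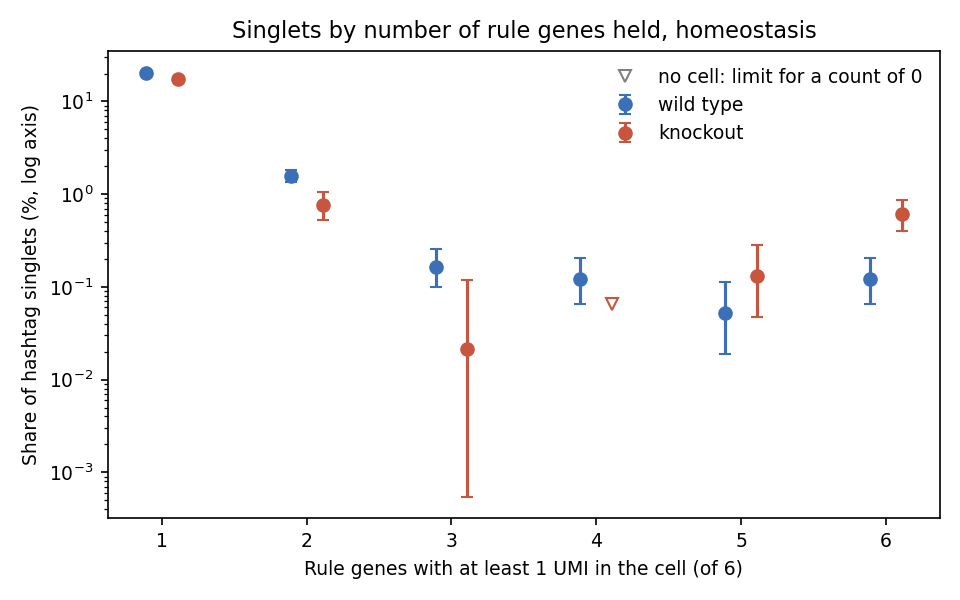
Percentage of the singlets of each genotype (vertical axis, log scale) by the number of the 6 B-lineage genes held (horizontal axis), with 95% exact binomial intervals as error bars and an open triangle for the limit that a count of 0 allows. At the depths measured, cells with 2, 3 or 4 genes were a larger share of the wild-type pool, and cells with all 6 a larger share of the knockout pool (0.605% against 0.121%).

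The summed content of the rule genes also differed. It had a median of 2.62 UMIs per 10000 (lowest 0.516, highest 31.7) in cells with 2 to 4 genes and of 128 per 10000 (6.20 to 367) in cells with 5 or more. Among the 35 combinations seen, the most frequent was Vpreb1 with Cd79b alone, in 65 cells, followed by Ebf1 with Cd79b, in 47. Among cells with 5 or more genes, Ebf1, the factor that opens the program, measured 3873 CPM in wild type and 6965 CPM in knockout, against 118 and 60.7 CPM in cells with 2 to 4 genes and 3.49 and 1.85 CPM in non-members. The surrogate light chain genes Vpreb1 (836 and 1254 CPM) and Igll1 (555 and 936) were likewise higher in knockout at 5 or more genes. So were Vpreb3 (963 and 1707) and the receptor subunits Cd79a (622 and 926) and Cd79b (245 and 375). All 6 rule genes were thus at higher levels in the knockout cells of this kind, which is a description and no test. Cd79b, the rule gene detected most widely, was in 151 of the 216 cells with 2 genes and in 15.1% of non-members.

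**Figure D2:**
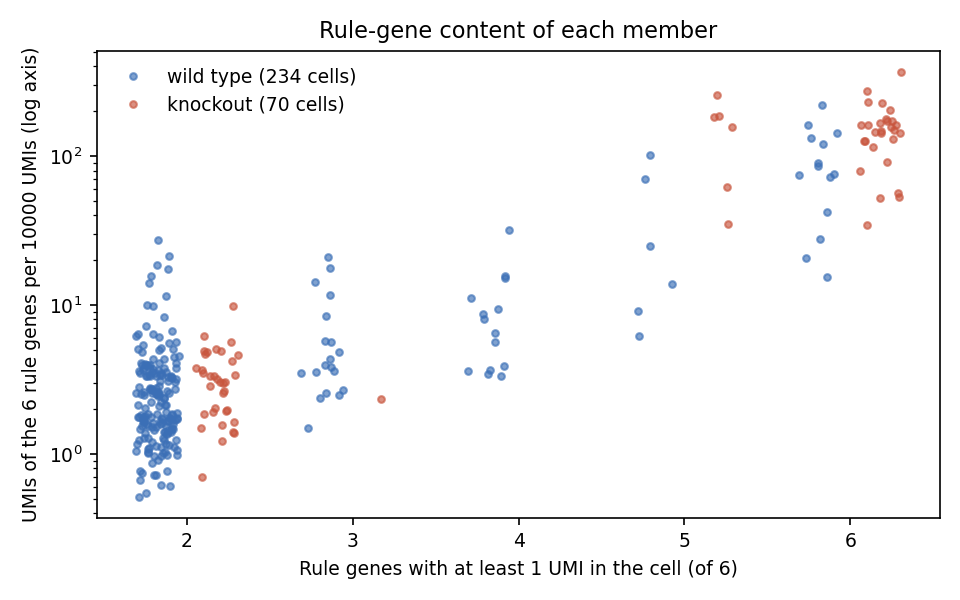
UMIs of the 6 rule genes per 10000 UMIs in each member (vertical axis, log scale) by the number of rule genes held and genotype, 1 point per cell. Most cells with 5 or 6 genes lie well above those with 2 to 4. The lowest wild-type cells with 5 genes (from 6.20) and with 6 (from 15.5) reach into the range of the cells with fewer.

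Cells with 5 or more rule genes carried markers of B-lineage progenitors that the rule did not use. Of 7 such markers (Pax5, Il7r, Rag1, Rag2, Blnk, Pou2af1 and Ighm), 3 or more were detected in 47 of the 54 cells (87.0%, 75.1 to 94.6), in 10 of the 250 cells with 2 to 4 genes (4.0%, 1.93 to 7.23) and in 87 of 15903 non-members (0.547%, 0.438 to 0.674). In non-members with Dntt and Flt3 it was 84 of 3799 (2.21%, 1.77 to 2.73). Of all 144 singlets that reached 3 markers, 47 (32.6%) held 5 or more rule genes, so the cut is not particular to them. By genotype, 33 of 34 knockout and 14 of 20 wild-type cells with 5 or more rule genes reached 3 markers. The label of B-lineage cells was thus borne out by independent markers for these 47 cells, and not for the other 7 of the 54 or for most of the 304.

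The same was seen in the neighborhoods of the cells. Each singlet was given its 20 nearest neighbors in 30 principal components of 2000 variable genes that excluded the rule genes. The median share of members among the neighbors was 100% for cells with 5 or more genes and 5.00% for cells with 2 to 4, where members were 1.88% of all singlets. Within the latter it was 5.00% for exactly 2 genes, 25.0% for 3 and 27.5% for 4. At least 2 of 4 neutrophil genes were held by 11 of the 20 cells with 3 genes and by 10 of the 14 with 4. They were held by 78 of the 216 with 2 and by 3018 of all 16207 singlets. Median depths were 11194, 11610 and 10826 UMIs in the cells with 3, 4 and 2 genes, against 6884 in all singlets. The part of depth and of the neutrophil genes in the neighborhoods was not tested. Most neighbors were themselves cells with 5 or more genes for 47 of the 54 (13 of 20 wild type and 34 of 34 knockout), for none of the 250 and for 1 non-member.

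Transcription factors of the B lineage were among the genes furthest above the other singlets in these 54 cells. Pax5 measured 229 CPM in wild-type and 340 CPM in knockout cells with 5 or more rule genes, against 0.168 and 0.138 CPM in the non-members. The log2 ratio to non-members was therefore 10.39 (9.56 to 11.34) in wild type and 11.14 (10.00 to 12.92) in knockout. Lef1, a nuclear effector of Wnt signaling used by pro-B cells, measured 377 and 476 CPM against 0.378 and 0.551. Foxo1, which drives Il7r and Rag expression, measured 163 and 192 CPM against 20.1 and 21.5. Tcf3 (189 and 287 CPM against 70.2 and 69.2) and Bach2, a repressor of myeloid and plasma cell genes (484 and 526 against 136 and 137), were also more than 2-fold higher in both genotypes. Of 12 listed factors, 8 had enough UMIs to be compared and these 5 passed the 2-fold limit in both genotypes, with list medians of 1.64 (wild type) and 2.00 (knockout). Ikzf1, Bcl11a and Spi1, which early progenitors share, did not, and Bcl11a was at 357 and 315 CPM against 414 and 402. Across all 2153 genes compared in these cells, 167 were at least 2-fold higher in both genotypes (7.76%) and 17 at least 2-fold lower (0.790%), with medians of 0.12 and 0.095. A gene near 0 in non-members could be compared only where it was high in these cells, so such counts describe the genes compared and do not weigh them. The genes furthest above non-members also held 1700027J07Rik, Cecr2, Akap12, Slamf6, Gfra1, Gm30948, Cplx2, a synaptic vesicle protein, Bfsp2, an intermediate filament protein, and Pde2a, a phosphodiesterase. The genes furthest below were Nrgn (35.7 and 37.8 CPM against 182 and 179), Ica1, Plek, Mpo, the neutrophil peroxidase (51 and 12.6 CPM against 142 and 97.7), Zfp521, Slc22a3, Pcdh7, Ccnd2, a cyclin of G1 (86.6 and 50.4 CPM against 210 and 221), Dnajc6 and Ccser1.

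Receptor signaling genes were compared in the same way. Blnk, the adaptor that links the pre-B cell receptor to calcium signaling, measured 555 and 576 CPM in wild-type and knockout cells with 5 or more genes, against 3.84 and 1.82 in non-members. The kinases Syk, Btk and Lyn were present throughout the progenitors and stayed within 2-fold in at least 1 genotype. Syk measured 199 and 365 CPM against 142 and 117. Of 12 listed signaling genes 6 could be compared and 2 passed the limit in both genotypes, Blnk and Pik3ap1, an adaptor that links receptors to phosphoinositide kinase, with log2 ratios of 1.82 and 2.51, beside 7.76% of all genes compared.

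Genes of V(D)J recombination were higher in sum in the same cells than in non-members. Rag2, the partner of Rag1 in cutting the immunoglobulin loci, measured 102 and 72.5 CPM against 2.06 and 0.80 in non-members. Dntt, which adds bases at the joints, measured 454 and 614 CPM against 163 and 60.3. Dntt was thus already present in many non-members, and 29.0% of wild-type and 12.8% of knockout singlets held both Dntt and Flt3, a receptor of lymphoid-primed progenitors. Xrcc6, a subunit of the Ku end-joining complex, measured 173 and 302 CPM against 72.4 and 73.6. All 10 listed genes together summed to 1045 CPM (907 to 1198) in wild-type and 1310 CPM (1188 to 1443) in knockout cells, against 498 (493 to 502) and 401 (395 to 408) in non-members. In the non-members with Dntt and Flt3, both genotypes together, the sum was 813 CPM (803 to 822), so part of the excess was shared with those cells. Dntt, which helps define them, is in the list. Rag1 is listed with only 8 UMIs in all 23931 barcodes, so no level is given for it, and it adds little to the count of independent markers.

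Of the early lymphoid genes, Il7r was the one of 6 comparable that passed the limit, with 290 and 359 CPM against 6.08 and 2.48 in non-members. It was seen in 12 of the 20 wild-type cells and in 32 of the 34 from knockout, although antibody to IL7Ra was part of the sort. Flt3 was lower than in non-members (270 and 167 CPM against 383 and 325), and so was Satb1, a chromatin organizer of lymphoid priming (168 and 148 against 246 and 182), both by less than 2-fold. Ly6d, a surface protein of B-biased lymphoid progenitors, measured 56.1 and 47.3 CPM against 0.630 and 0.331.

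Immunoglobulin heavy chain RNA was present, while the defining genes of mature B cells were at or near 0. Ighm, the constant region of IgM, measured 438 CPM in wild-type and 633 CPM in knockout cells against 58.5 and 34.1, and was detected in 17 of 20 and 33 of 34. Ms4a1 (CD20) had UMIs in 1 wild-type cell and in no knockout cell, and Fcer2a (CD23) in none of either. The wider mature B cell list, which holds antigen presentation genes, summed to 467 CPM (410 to 530) against 269 CPM (266 to 272), and 26 of the 28 wild-type UMIs of its member Cd74 lay in 1 cell. Mzb1, an endoplasmic reticulum chaperone of immunoglobulin assembly, measured 280 and 580 CPM against 0.525 and 0.331, whereas Jchain, the joining chain of secreted antibody, had no UMI in the 54 cells. Igkc is listed at 0 in the whole library and is not read here.

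**Figure D3:**
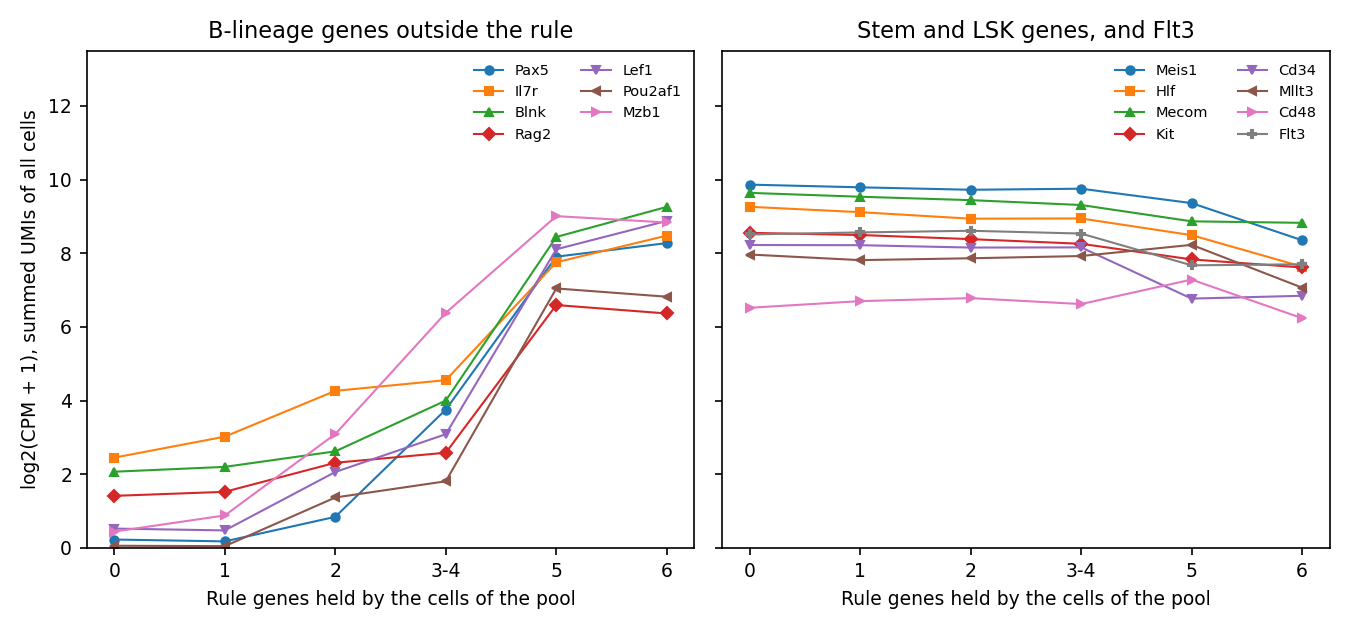
Levels as log2(CPM + 1) of the summed UMIs of all cells (vertical axis) by the number of rule genes held (horizontal axis, both genotypes pooled), for 7 B-lineage genes outside the rule on the left and for 7 stem and LSK genes and Flt3 on the right, 1 line per gene. All 7 B-lineage genes lie higher at 5 and 6 genes than at 0 to 4, and most stem and LSK genes lie somewhat lower at 6 than at 0.

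In sum, neutrophil and monocyte genes and megakaryocyte and erythroid genes were lower in the 54 cells than in non-members. T cell genes were low in both, and dendritic cell genes were not lower. None of the 11 T cell genes had enough UMIs to be compared, and their summed level was 17.5 CPM (8.01 to 33.3) against 22.6 CPM (21.8 to 23.4) in non-members. Neutrophil and monocyte genes summed to 438 CPM (351 to 541) in wild-type and 126 CPM (90 to 172) in knockout cells, against 848 CPM (843 to 853) in non-members of both genotypes. Megakaryocyte and erythroid genes summed to 38.9 CPM (23.8 to 60.1) against 188 CPM (185 to 190), and dendritic cell genes to 960 CPM (877 to 1048) against 833 CPM (828 to 838). In the non-members with Dntt and Flt3 the dendritic cell genes summed to 1022 CPM (1012 to 1033). Stem and LSK genes had medians of -0.32 (wild type) and -1.79 (knockout) relative to non-members over 8 comparable genes, with none past 2-fold in both genotypes.

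Genes of the G2 and mitosis list were high in sum. All 16 listed genes together summed to 3378 CPM (3126 to 3646) in wild-type and 5418 CPM (5165 to 5680) in knockout cells, against 1058 (1051 to 1064) and 804 (795 to 813) in non-members. Mki67, a nuclear protein of cycling cells, measured 703 CPM in wild-type and 1213 CPM in knockout cells against 189 and 153. Top2a, the topoisomerase that untangles replicated chromosomes, measured 550 and 1106 CPM against 246 and 190, and Ube2c, an enzyme of mitotic exit, 418 and 513 against 71.4 and 48.6. None of the 4 comparable S phase genes passed in both genotypes, with medians of -0.28 in wild type and 0.61 in knockout. The summed S phase level was 831 CPM (708 to 968) in the wild-type cells against 974 (967 to 980) in wild-type non-members, and 1711 CPM (1570 to 1861) against 882 (872 to 892) in knockout. Mitosis content varied between cells: 24 of the 54 (44.4%, 30.9 to 58.6) lay above 20.8 UMIs per 10000, the 90th percentile of non-members, and those 24 had a median depth of 10820 UMIs against 7006 in the rest.

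Few genes outside the rule set the cells with 2 to 4 rule genes apart from non-members in both genotypes. Of 3508 genes compared, 2 were at least 2-fold higher in both genotypes (0.0570%) and 1 was at least 2-fold lower (0.0285%). The higher genes were Ly6d (8.86 and 75.9 CPM in wild type and knockout, against 0.630 and 0.331) and Ctsg, a neutrophil granule protease (143 and 106 CPM against 71.3 and 39.8). The knockout value of Ly6d rested largely on 1 cell with 2 rule genes, which held 21 of its 25 UMIs. The wild-type value rested on 23 UMIs. The lower gene was S100a8, a neutrophil calcium-binding protein (5.01 and 9.10 CPM against 29.6 and 72.4). Some genes stood well above non-members in the 36 knockout cells without passing in wild type. Dntt measured 313 CPM there against 60.3 in knockout non-members, a log2 ratio of 2.38 (2.07 to 2.66), and 0.46 in wild type. The ratio was 3.55 (3.07 to 3.97) for Arpp21 and 2.80 (2.13 to 3.35) for Cmah in knockout, and 0.56 and 0.52 in wild type. Il7r measured 48.6 CPM against 2.48, with 16 UMIs in 3 of the 36 cells. Pax5 measured 2.70 CPM in the wild-type cells with 2 to 4 genes and had no UMI in the 36 knockout cells. Meis1, a homeobox factor of stem cells, measured 838 and 919 CPM there against 893 and 990 in non-members.

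Rule genes were also found where no B-lineage cell is expected. In barcodes with 10 to 100 UMIs, mostly free RNA, Ebf1 measured 74.4 CPM (61.4 to 89.3) and Vpreb1 8.41 CPM (4.48 to 14.4). The Ebf1 level was above that of non-members, which hold at most 1 rule gene by the rule and so are low in these genes. Of 499 singlets with at least 2 of 4 megakaryocyte-erythroid genes, 23 held 2 or more rule genes (4.61%, 2.94 to 6.84), above the 1.88% of all singlets. Of 3018 singlets with at least 2 of 4 neutrophil genes the share was 3.35% (2.73 to 4.05). Both gates were deeper than the singlets as a whole, with medians of 12137 and 10548 UMIs against 6884. Of all singlets, 0.333% held 5 or more genes. Of the 499, 0 did, which allows a share of up to 0.601% (3 cells of the total), so a lower share is not shown there. Of the 3018, 2 did (0.0663%, 0.00803 to 0.239). After each cell was thinned to the minimum depth, which all cells reach, the shares with 2 or more genes were 0.401% in the megakaryocyte-erythroid gate and 0.828% in the neutrophil gate, against 0.622% of wild-type and 0.972% of knockout singlets. The thinned shares with 2 to 4 genes were 0.401% and 0.795% in the gates, against 0.510% in wild type and 0.367% in knockout. A thinned class can also hold cells that had 5 or more genes before. Of the singlets with Dntt and Flt3, 3.90% (3.31 to 4.55) held 2 or more genes. Their thinned shares were 1.39% with 2 or more and 0.911% with 2 to 4. The part of background RNA in the members with 2 to 4 genes was not tested.

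All 304 members were also compared with the non-members as 1 group. Of 6285 genes outside the rule, 37 were at least 2-fold higher than in non-members in both genotypes (0.589%) and 2 at least 2-fold lower (0.0318%). The highest by the weaker genotype was Pax5, at 18.6 CPM in wild-type and 167 CPM in knockout members (log2 ratios 6.76 and 10.11). Lef1, Mzb1, the unnamed transcripts 1700027J07Rik, Gm32569 and Gm30948, the receptor genes Gfra1 and Gfra2, Cecr2, Slamf6 and Slamf7, Ly6d, Akap12 and Blnk followed, with wild-type ratios from 3.00 to 6.32. Gfra1 and Gfra2 encode receptors of the GDNF family, Slamf6 and Slamf7 immune cell receptors, Cecr2 a chromatin remodeling subunit and Akap12 a kinase scaffold. Of the Pax5 UMIs, 45 of 52 in wild type and 108 of 108 in knockout lay in cells with 5 or more rule genes. For Cecr2 these were 48 of 57 and 142 of 143. Most Ly6d UMIs, 23 of 34 and 25 of 40, lay in cells with 2 to 4. As above, a gene near 0 in non-members could be compared only where it was high in members. The 2 lower genes were the neutrophil proteins S100a9 (2.51 and 1.55 CPM against 25.4 and 50.9) and S100a8 (5.01 and 6.18 against 29.6 and 72.4). Their weaker log2 ratios, -3.24 and -2.51, were -0.54 and -0.23 without lineage-expressing cells, and turned to 0.14 and 1.15 against the non-members with Dntt and Flt3. That of S100a8 also turned, to 2.01, when 80% of the hashtag UMIs had to be of 1 tag. The next 8, Ncam2, Pttg1ip, Gm15261, Nupr1, Arhgap28, S100a1, Arrb1 and Ccl4, had weaker ratios from -0.49 to -0.68.

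The share of members by genotype depended on how many rule genes were asked for. Of wild-type singlets 234 (2.02%, 1.77 to 2.29) and of knockout singlets 70 (1.51%, 1.18 to 1.91) held 2 or more genes, a difference of -0.51 percentage points (knockout minus wild type; Newcombe 95% interval -0.92 to -0.047). The wild-type members were deeper, with a median of 11256 UMIs against 7854, and after thinning to the minimum depth the shares were 0.622% and 0.972%, a difference of 0.35 points (0.058 to 0.70) in the other direction.

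Cells with 5 or more genes were the larger share of the knockout pool. They were 20 of 11579 wild-type singlets (0.173%, 0.106 to 0.267) and 34 of 4628 knockout singlets (0.735%, 0.509 to 1.03), a ratio of 4.25 and a difference of 0.56 points (0.33 to 0.86). The cells with 2 to 4 genes went the other way, with 214 wild-type (1.85%) and 36 knockout cells (0.778%) and a difference of -1.07 points (-1.41 to -0.69). The cells with 3 or 4 genes numbered 33 in wild type (0.285%) and 1 in knockout (0.0216%). The wild-type cells with 2 to 4 genes were deeper, with a median of 11376 UMIs against 7698. After thinning to the minimum depth, 2 to 4 genes were held by 0.510% of wild-type and 0.367% of knockout singlets. Exactly 3 genes were then held by 4 and 0 cells, and exactly 4 by 5 and 6. Knockout had 0 cells with exactly 4 before thinning. The thinned class with 2 to 4 genes thus takes in cells that held 5 or more, and is not the same kind of cell. The thinned shares with 5 or more were 0.112% and 0.605%.

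Other markers bear on the difference for 5 or more genes. Of the cells with 5 or more genes, 14 wild-type (0.121%) and 33 knockout cells (0.713%) also held 3 or more of the 7 independent markers, a difference of 0.59 points (0.37 to 0.88) within the same cells. Asked for on their own, 3 or more of the 7 markers were held by 0.924% of wild-type (0.758 to 1.12) and 0.799% of knockout singlets (0.564 to 1.10), so that the larger share was then in wild type, with intervals that overlap. As a further setting, cells in which 9 lineage genes summed to 2 or more UMIs were left out. The study's own rule differs: it removed cells with any lineage marker, and the paper describes only a small number lost. The rule here took 548 non-members and 61 members. Among these were 37 of the 54 cells (68.5%), against 3.45% of non-members. Of the 54, a larger share of knockout (76.5%) than of wild-type cells (55.0%) was taken. In these cells the 9 genes were almost only Il7r, itself an independent marker, with all 57 of their wild-type UMIs and 114 of 120 in knockout. Then 9 wild-type and 8 knockout cells were left, and the difference of 0.098 points (-0.016 to 0.28) was not detectable at this depth. Requiring that 1 tag held 80% of the hashtag UMIs left 2 and 6 cells, with a difference of 0.56 points.

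**Figure D4:**
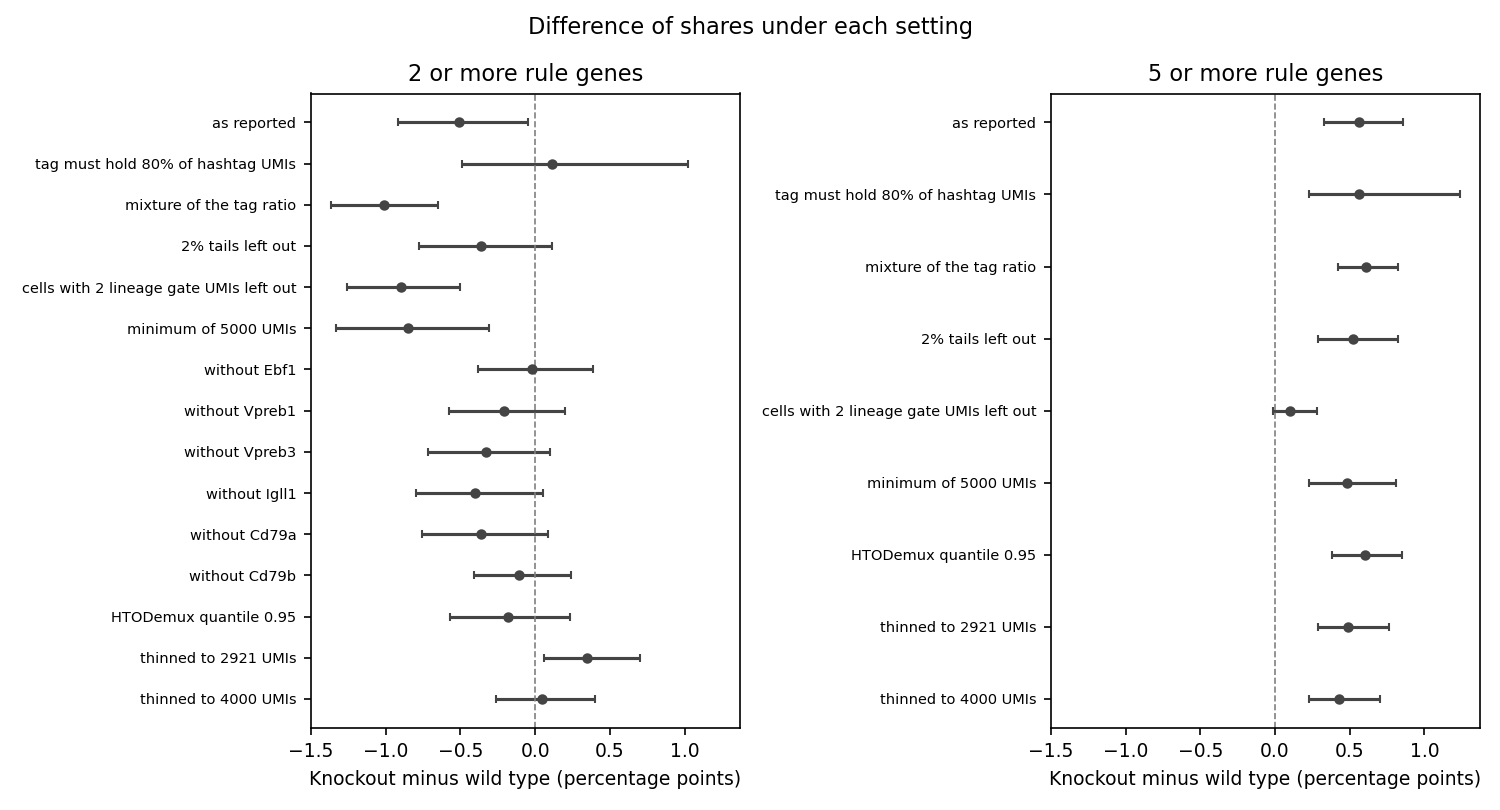
Difference in share, knockout minus wild type in percentage points (horizontal axis, bars are Newcombe 95% intervals), under each processing setting, for cells with 2 or more and with 5 or more rule genes. The difference for 2 or more genes changes sign between settings, and that for 5 or more stays above 0, with an interval that reaches 0 when lineage-expressing cells are left out.

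The hashtags and the wild-type cells with few markers bear on this count. The 20 wild-type cells held 208 to 582 UMIs of B0096 (median 296) and 54.0 to 175 of B0157 (median 126), and the 34 knockout cells 188 to 420 of B0157 (median 246) and 44.0 to 151 of B0096 (median 88.0). In wild-type non-members the medians were 389 for B0096 and 95 for B0157, and in knockout non-members 235 for B0157 and 93 for B0096. The wild-type cells thus held less of their own tag and more of the other than wild-type non-members, and the part of this in the count was not tested. That the tags do not overlap between genotypes follows from the assignment. The 6 wild-type cells with under 3 independent markers had 6.20 to 27.7 rule gene UMIs per 10000 (median 14.6) and a median of 33.7 stem and LSK gene UMIs per 10000, close to the 33.3 of wild-type non-members. The part of background RNA or of 2 cells under 1 barcode in these 6 was not tested.

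The 304 members of the genotypes differed in makeup, since 34 of 70 knockout but 20 of 234 wild-type members held 5 or more rule genes. Of 8389 genes with 50 or more UMIs, 243 were at least 2-fold higher in knockout members (2.90%) and 259 at least 2-fold lower (3.09%). The 10 highest were Vpreb2, Akap12, Chst3, Pou2af1, Cecr2, Slamf6, Pax5, Gfra2, Arl5c and 1700027J07Rik, with log2 ratios from 3.10 to 3.55. Vpreb2, a surrogate light chain gene nearly identical to Vpreb1, so that reads may be split between them, measured 6.09 CPM in wild-type and 72.6 CPM in knockout members. Pou2af1, a coactivator of immunoglobulin genes, measured 6.45 and 71.1 CPM. Within the cells with 2 to 4 genes, 108 of 7845 genes were at least 2-fold higher in knockout (1.38%) and 284 at least 2-fold lower (3.62%). Within the cells with 5 or more genes the ratios of the named genes were smaller, 1.23 (0.34 to 2.33) for Vpreb2 and 1.09 (0.22 to 2.14) for Pou2af1, and Pax5 went from 3.16 to 0.56 (0.055 to 1.10). With 3 independent markers as well they were 0.86 (-0.034 to 1.95), 0.72 (-0.16 to 1.77) and 0.16 (-0.35 to 0.71), with intervals that reach 0.

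Of the 10 lowest genes, 5 were immunoglobulin or secretory genes that came largely from single wild-type cells, and the other 5 were also lower without those cells. Iglc1, a lambda light chain constant gene, had 3172 UMIs over all members, and 3157 of these lay in 1 wild-type cell with 2 rule genes. Igha, the IgA heavy chain, had 1943 and 2 UMIs, and Jchain had 1111 and 1, of which 698 lay in 1 wild-type cell with 3 rule genes. The variable segments Iglv1 and Igkv12-98 had 227 and 81 UMIs, all of them in wild-type members. Without the 3 wild-type cells richest in Iglc1, Jchain or Elane, the log2 ratio of Iglc1 went from -8.20 (-11.57 to -6.67) to 0.013, and those of Igha and Jchain turned to 1.23 and 1.35, resting on 4 and 2 wild-type and 2 and 1 knockout UMIs. The wild-type members then held 2 UMIs of Iglv1 and 0 of Igkv12-98, with 0 of either in knockout. Elane, a neutrophil protease, went from -4.16 (-5.93 to -3.07) to -3.16 and kept its direction. Itgb5 (-3.15), Slc16a11 (-3.07), Cd74 (-2.97) and Slc19a1 (-2.96) were nearly the same without these cells, at -3.18, -3.10, -2.79 and -2.99, and each but Cd74 rested on 1 knockout UMI. Slc16a11 was as far below in knockout non-members (-3.58, -3.88 to -3.30), and Itgb5 less far (-0.73), whereas Elane was at 0.24 (0.14 to 0.34), Cd74 at 0.061 and Slc19a1 at -0.10 there.

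Within the cells with 5 or more rule genes, most B-lineage factors and receptor signaling genes lay within 2-fold between genotypes. Of 2053 genes with 50 or more UMIs, 55 were at least 2-fold higher in knockout (2.68%) and 38 at least 2-fold lower (1.85%), with a median of 0.075. A gene low in 1 pool could reach 50 UMIs only where it was high in the other. Counts between genotypes, here and below, thus describe the genes compared. Among 8 comparable B-lineage factors 1 was past 2-fold (Pou2af1), with a list median of 0.28, and among 7 receptor signaling genes none was. Without the 6 wild-type cells and the 1 knockout cell with under 3 independent markers, none of the 8 factors was past 2-fold and their median was -0.032. Mzb1 was 1.04 (0.61 to 1.51) in all the cells and 0.77 (0.32 to 1.26) in those with 3 markers. Sin3b measured 51 CPM (24.4 to 93.7) in wild-type and 15.8 CPM (5.11 to 36.8) in knockout cells, a log2 ratio of -1.63 (-3.59 to -0.011).

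Stem cell genes were lower in the knockout cells with 5 or more genes. Of 6 comparable genes of the list, 5 were at least 2-fold lower, beside 1.85% of all genes compared: Meis1 (606 CPM in wild type, 239 in knockout), Hlf (372 and 132), Mecom (678 and 318), Mllt3 (239 and 110) and Cd34 (199 and 59.9). Meis1, Hlf and Mecom are transcription factors of stem cells, and Cd34 is a progenitor surface protein. The ratios were -1.34 (-1.78 to -0.91) for Meis1 and -1.48 (-2.07 to -0.92) for Hlf, while in non-members they were 0.15 and 0.052. Kit, the stem cell factor receptor, measured 234 and 180 CPM. Per cell the summed list had a median of 24.6 UMIs per 10000 in wild type (4.30 to 48.4) and 5.45 in knockout (0 to 40.0), so the genotypes overlapped. Within cells that also held 3 independent markers the medians were 18.2 and 5.79 per 10000, and 3 of 5 comparable genes were at least 2-fold lower, beside 1.20% of all 1833 genes compared.

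Summed over cells, S phase genes were higher in the knockout cells, while per cell the genotypes overlapped. Of 8 comparable genes 4 were at least 2-fold higher and none lower, beside 2.68% and 1.85% of all genes compared: Rrm2, a subunit of ribonucleotide reductase (25.5 CPM in wild type and 186 in knockout), Uhrf1, which maintains DNA methylation (35.7 and 142), Tyms, thymidylate synthase (40.8 and 139), and Pcna, the polymerase clamp (122 and 299). The ratio of Rrm2 was 2.74 (1.56 to 4.54). Rrm2 (5 wild-type and 59 knockout UMIs), Uhrf1 (7 and 45) and Tyms (8 and 44) reached the 50 UMIs mainly through the knockout pool. The count of 4 of 8 therefore describes the genes compared and does not weigh them. Per cell the summed list had a median of 8.0 UMIs per 10000 in wild type (0 to 32.9) and 10.1 in knockout (0 to 55.5), and 4 knockout cells lay above the highest of wild type. In the G2 and mitosis list 1 of 13 genes passed 2-fold, with a median of 0.60. Cells above 20.8 mitosis UMIs per 10000 were 7 of 20 in wild type (35.0%, 15.4 to 59.2) and 17 of 34 in knockout (50%, 32.4 to 67.6), a difference not detectable with these numbers. Of the 10 genes highest in knockout, Lsm2, Agbl4, Map4k2, Pclaf, Srrt, Elof1 and Cep350 completed the list, with ratios from 1.54 to 1.88. Agbl4 was also higher in knockout non-members (3.24). The 10 lowest were Plcl1 (-3.59), Prtn3 (-3.04), Il1rapl2, Osbpl1a, Slco3a1, Alcam, Cd34, Ifitm1, Pard3b and Adgrl4, the last at -1.61. In non-members Plcl1 (1.08, 1.03 to 1.12), Il1rapl2 (0.44) and Ifitm1 (0.15) were higher in knockout, and the other 7 had ratios from -0.061 to -0.52. Prtn3, a neutrophil protease, had UMIs in 16 of the 20 wild-type cells and in 6 of the 34 from knockout.

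**Figure D5:**
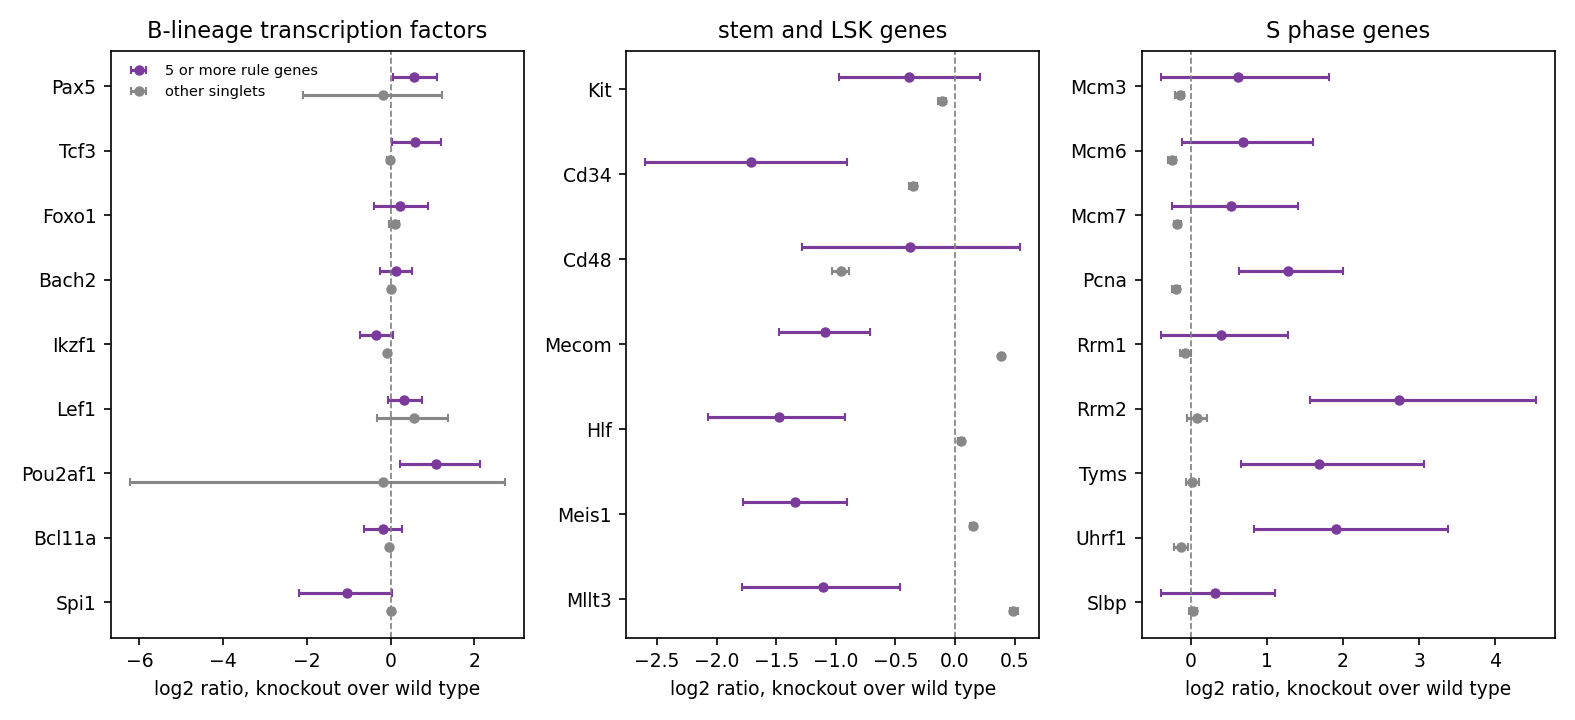
Log2 ratio, knockout to wild type (horizontal axis), of B-lineage transcription factors, stem and LSK genes and S phase genes with 30 or more UMIs over both pools, in cells with 5 or more rule genes (purple) and in non-members (gray), with 95% conditional exact intervals for counting error. In the purple points all 7 stem and LSK genes lie below 0 and all 9 S phase genes above it, and of the 9 B-lineage factors 7 lie within 1 of it.

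Other mice were given 5-fluorouracil at 100 mg/kg 9 days before harvest, and their cells were read as another library. There the same genes were asked for, but no minimum depth was set. Of 5302 wild-type and 3727 knockout singlets, 4869 and 3493 reached the minimum depth used at homeostasis. Cells with 2 or more genes were 112 of 5302 wild-type (2.11%, 1.74 to 2.54) and 102 of 3727 knockout singlets (2.74%, 2.24 to 3.31). Cells with 5 or more were 44 (0.830%, 0.604 to 1.11) and 11 (0.295%, 0.147 to 0.527). The knockout singlets were deeper, with a median of 11259 UMIs against 9298. After thinning to the minimum depth, the shares with 2 or more genes were 1.01% in wild type and 0.515% in knockout, the other direction. The thinned shares with 5 or more were 0.739% and 0.286%. Condition and library coincide, so these values stand beside those at homeostasis without a test.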

How the data were processed

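The authors deposited raw UMI counts per gene and barcode for LSK cells, with 2 hashtag features. Per the file headers and the submitters' notes the counts were made with Cell Ranger. The notes name the build mm9, which was not used for any coordinate here. The homeostasis matrix listed 6794880 barcodes and carried no gene names, which were taken from the list of the other matrix after the row order was checked (correlation of log counts 0.926 in the order given, 0.395 or less when shifted). At homeostasis, cells were barcodes whose gene UMIs reached 10% of the value at the 99th percentile of the 10000 deepest barcodes. In the 5-fluorouracil matrix every barcode was kept. Singlets were called with HTODemux (Seurat 5.3.0, R 4.3.3) at a quantile of 0.99. No doublet caller was run beyond the hashtags, and no cell was left out by quality in the reported values. The 2 libraries shared 76 barcodes.

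UMIs were summed per pool and gene, and ratios were formed with 0.5 UMI added. A gene was compared with non-members when, in both genotypes, the members held 20 UMIs or the non-members' level scaled to the members' total gave 20, and between genotypes when the 2 pools together held 50 UMIs. The limit was 2-fold. Shares carry exact Clopper-Pearson (and, for a count of 0, a limit of 3 counts of the total), differences Newcombe, levels exact Poisson and ratios conditional exact binomial 95% intervals, computed in Python 3.11.15 with scipy 1.17.1, and the ratio step was tested on simulated data. Scaling by edgeR 4.0.16 was an alternative, as were other hashtag calls, depth cuts, thinning, lineage filters and gene minimums. The members and gene lists were chosen with earlier results of these data known. Named are the rule genes, Sin3b, genes of the lists, the 15 highest and 10 lowest genes against non-members and the 10 highest and 10 lowest between genotypes. A gene of these sets is not reported here and was left out of the marker count. The grouping by 5 or more genes, and all results on it, were added after the values were seen.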

Additional observations from a re-analysis of the deposited data

Results flagged for a closer look

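Cells with 5 or more rule genes were also found among barcodes that the genotype comparison did not use. Of 6283 barcodes with no tag, 55 held 5 or more (0.875%, 95% exact binomial interval 0.660 to 1.14), against 0.173% of wild-type and 0.735% of knockout singlets. Of these 55, 51 held 3 or more of the 7 independent markers (Pax5, Il7r, Rag1, Rag2, Blnk, Pou2af1 and Ighm), and their Sin3b level was 28.8 CPM (14.4 to 51.6), beside 28.7 CPM in untagged cells with fewer than 2 rule genes. Of 1441 barcodes with both tags, 11 held 5 or more (0.763%, 0.382 to 1.36). The genotype of these cells was not assigned, and they would change the shares if it were. A 2-component mixture of the tag ratio, which places most untagged cells, gave 33 wild-type (0.246%) and 86 knockout cells (0.853%).

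The difference in the share of cells with 5 or more rule genes, knockout minus wild type, was -0.53 percentage points in the 5-fluorouracil library and 0.56 points at homeostasis, opposite in sign. The difference between the libraries was not tested, since each condition is 1 library of other mice. No minimum depth was set for the 5-fluorouracil library.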

How the results depend on the processing

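No paired analysis was possible because each genotype was 1 pool in 1 library and no test was made. The difference in the share of cells with 2 or more rule genes (-0.51 points) was -1.01 under the mixture of tags, -0.021 without Ebf1 among the rule genes and -1.07 for 2 to 4 genes. It was positive in 6 settings: 0.11 when 80% of hashtag UMIs had to be of 1 tag, 0.35 and 0.043 after thinning to the minimum depth and to 4000 UMIs, 0.30 for 3 or more genes, 0.56 for 5 or more and 0.59 for 5 or more with 3 independent markers. The difference for 5 or more genes ranged from 0.43 to 0.61, except for 0.098 without lineage-expressing cells. The genes 2-fold from non-members (39) were 3 with the 80% tag rule, 6 without lineage-expressing cells, 92 for 3 or more genes, 184 for 5 or more, 3 for 2 to 4, 14 and 92 at expected counts of 50 and 5, and 61 by mean CPM per cell. The genes 2-fold between genotypes (502) were 300 with the 80% tag rule, 93 for 5 or more, 60 with 3 markers too, 224 and 1000 at minimums of 100 and 20 UMIs. The number of genes compared changed as well. Against non-members it was 6285 for all members, 2153 for 5 or more and 3508 for 2 to 4. Between genotypes it was 8389, 2053 for 5 or more and 1833 with 3 markers too. Shares higher and lower in knockout were 2.90% and 3.09%, 2.68% and 1.85%, and 2.07% and 1.20%, in that order. The split of 243 higher and 259 lower was 102 and 198 with the 80% tag rule, 104 and 253 without lineage-expressing cells, 266 and 152 for 3 or more genes, and 108 and 284 for 2 to 4. Shares with 2 or more genes in the megakaryocyte-erythroid and neutrophil gates were 0.401% and 0.828% when thinned, and the median share of members among the neighbors of all 304 members was 5.00% with 20 neighbors and 8.0% with 50. The cause of these shifts was not tested.

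Single genes changed sign as follows on the log2 scale. S100a8 was 2.01 with the 80% tag rule and 1.15 against singlets with Dntt and Flt3, where S100a9 was 0.14. Iglv1 was 0.25 with the 80% tag rule. In cells with 2 to 4 genes, where the knockout pool held 0 or 1 UMI of each so that the values rest on the added 0.5 UMI and are no bound, Vpreb2 and Pou2af1 were -0.48, Akap12 -1.11, Chst3 and Gfra2 -0.19, Slamf6 -1.55, Pax5 -0.93, Arl5c -0.081 and 1700027J07Rik -1.41. Elane was 1.25 in cells with 5 or more genes and 3 markers, from 0 wild-type and 2 knockout UMIs. Without the 3 cells named in the report, Iglc1 was 0.013, Igha 1.23 and Jchain 1.35, from few UMIs, and Igkv12-98 was 2.08 from 0 UMIs in both pools, which is no measured change. Of the values for single genes, 412 stayed close to the reported value, 150 moved and 18 changed sign. The 54 cells with 5 or more genes limit the precision of every value on them.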

Other observations

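A further set of singlets carried B-lineage markers but few rule genes. With 3 or more of the 7 independent markers and fewer than 5 rule genes there were 93 wild-type (0.803%, 95% exact binomial interval 0.649 to 0.983) and 4 knockout cells (0.0864%, 0.0236 to 0.221), a difference of -0.72 percentage points (-0.90 to -0.52). All 93 wild-type cells held Ighm, 85 held Il7r, 90 Dntt, 91 Flt3, 58 Blnk and 49 Rag2, whereas 21 held Ebf1, 6 Pax5 and none Pou2af1. Singlets with both Dntt and Flt3 made up 29.0% of the wild-type pool against 12.8% in knockout.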
